A study of Mus musculus with 18 samples.

Results

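A set of 10 genes that build the elastic fibre was examined in mouse aorta, chosen by symbol as *Eln*, *Fbn1*, *Mfap4*, *Mfap5*, *Emilin1*, *Fbln5*, *Efemp2*, *Ltbp4*, *Lox* and *Loxl1*. All 10 were found among the 55453 gene symbols of the count tables. Elastic fibres give the aortic wall its recoil. They are made when tropoelastin, the product of *Eln*, is laid onto a scaffold of fibrillin microfibrils and its lysines are crosslinked by lysyl oxidases, a process carried out largely by smooth muscle cells of the media around and after birth. Little elastin is replaced in the adult.

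The libraries came from a study that edited the CArG box, the binding site of serum response factor, in the promoter of *Tspan2*, a tetraspanin gene of smooth muscle. In the HDR experiment, Cas9, a guide RNA and a single-stranded donor replaced 3 bases of the box by homology-directed repair, and 5 *Tspan2* sg/sg mice were compared with 5 wild-type mice, all 12 weeks old and with the strain given as C57BL/6. In the PE2 experiment, prime editor 2, in which a reverse transcriptase is joined to a nicking Cas9, changed a single base of the box (C to G), and 4 *Tspan2* peg/peg mice were compared with 4 wild-type mice, all 8 weeks old and with the strain given as FVB/N/B6(Cg)-Tyrc-2J/J. Each HDR genotype held 3 females and 2 males, the PE2 wild type 3 females and 1 male, and the peg/peg group 4 females. Founders of both kinds came from the same hybrid cross and were bred to C57BL/6J before heterozygotes were intercrossed. The peg/peg mice descended from 2 founders and the sg/sg mice from selected founders, and the number of the latter was not given in the sources used here. The HDR count columns carry numbers (2 to 6) that could not be tied to the numbered animals, so the labelled sexes were not used for them. Counts of Y-linked genes were used where stated. All 18 libraries were bulk poly(A) RNA-seq of whole aorta, in which fewer cells of a type and less RNA per cell cannot be told apart.

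The questions were whether these genes differed between genotypes in either experiment, and how their levels varied among the libraries. Promoter sequence was at hand in RefSeq (GRCm38.p6) for 5 of the 10 genes, *Fbn1*, *Emilin1*, *Fbln5*, *Efemp2* and *Ltbp4*, as 10 windows of 250 bases before a start site, 3 of them each for *Ltbp4* and *Efemp2* and partly overlapping. No window held a CArG box on either strand, the element edited at *Tspan2*, which occurred in 1.47% of 32851 mouse promoter windows of the same length. At that share 10 windows would seldom hold a box. Boxes with a substituted base and bases beyond the windows were not searched. The paper places the box of human *TSPAN2* further upstream than 250 bases. The absence therefore does not show that these genes lack the element. The TATA box (TATAAA, both strands) was in none of the 10 and in 12.4% of all, and the GC box (GGGCGG, both strands) was in 8 of the 10 and in 32.7% of all. Those 8 are not separate observations, since overlapping windows of *Ltbp4* and of *Efemp2* share boxes. The window of *Emilin1* and the second of *Fbln5* held none. The first window of each of 3 genes is shown 5′ to 3′ on the strand of the gene with GC boxes in capitals, because their genes took 3 different courses among the HDR libraries described further on: *Fbn1* higher in 4 libraries, *Fbln5* overlapping and *Ltbp4* lower in the same 4.
*Fbn1*, chr2:125506439-125506688, minus strand: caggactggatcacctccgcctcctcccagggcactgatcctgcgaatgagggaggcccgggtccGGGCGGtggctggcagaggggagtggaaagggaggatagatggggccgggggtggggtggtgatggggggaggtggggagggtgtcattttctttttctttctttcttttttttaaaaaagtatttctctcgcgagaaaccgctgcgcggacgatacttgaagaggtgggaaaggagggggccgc
*Fbln5*, chr12:101819120-101819369, minus strand: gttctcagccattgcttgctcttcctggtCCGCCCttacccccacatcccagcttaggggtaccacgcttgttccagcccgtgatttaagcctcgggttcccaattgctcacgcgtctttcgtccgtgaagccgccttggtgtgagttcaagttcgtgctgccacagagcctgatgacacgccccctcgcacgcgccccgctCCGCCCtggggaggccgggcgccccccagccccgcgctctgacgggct
*Ltbp4*, chr7:27337613-27337862, minus strand: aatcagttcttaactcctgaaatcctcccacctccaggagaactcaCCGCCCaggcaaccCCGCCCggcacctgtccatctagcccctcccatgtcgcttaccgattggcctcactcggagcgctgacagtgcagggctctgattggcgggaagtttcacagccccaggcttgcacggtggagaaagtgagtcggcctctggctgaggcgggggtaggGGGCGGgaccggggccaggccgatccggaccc
These letters describe the windows and say nothing about binding in these aortae.

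Total counts ran from 17290992 to 24880385 per library in the HDR experiment and from 38820265 to 44895615 in the PE2 experiment. *Tspan2*, whose promoter was edited, stood at 112, 209, 265, 253 and 205 CPM (read counts scaled by library size) in the HDR wild type and at 20.4, 22.1, 15.9, 29.3 and 36.6 CPM in sg/sg. In the PE2 experiment it stood at 194, 284, 208 and 186 CPM in the wild type and at 25.5, 25.5, 11.9 and 16.9 CPM in peg/peg, so in both experiments every library lay on the side that its label gives. Smooth muscle markers (*Myh11*, *Acta2*, *Tagln* and 5 others) summed to between 15982 and 58080 CPM in the 18 libraries.

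One library went against the tissue label. The library labelled peg/peg replicate 3 held 880 CPM from 6 urothelial genes (*Upk1a*, *Upk1b*, *Upk2*, *Upk3a*, *Krt5* and *Ivl*), against at most 45.0 CPM in the other PE2 libraries and 84.0 CPM in the HDR libraries. The visceral muscle genes *Actg2*, *Des* and *Synm* summed to 16476 CPM in it, against 315.5 to 616 CPM in the other PE2 libraries. The 6 skeletal muscle markers summed to 1133 CPM against at most 18.9, of which *Acta1* gave 756, *Ckm* 300.4 and *Tnnt3* 74.2 CPM, while *Atp2a1* at 0.154 CPM was the lowest of all 18 libraries. The 5 cardiac markers summed to 524 CPM against at most 96.3, but 518 CPM of this was *Tnnt2*, with *Tnni3* at 1.69 CPM below the other PE2 libraries and *Myh6* at 1.34 CPM within their range. Smooth muscle markers were at 58080 CPM, the highest of the 18 libraries, and endothelial markers at 583 CPM, the lowest, against at least 904 in the others. Of the endothelial genes, *Pecam1*, *Vwf* and *Tek* were each lowest in this library. *Cdh5* and *Tie1* lay inside the HDR range, and *Kdr* at 78.5 CPM lay inside that of the other PE2 libraries (73.5 to 107 CPM). Within the smooth muscle sum, *Myh11*, *Tagln*, *Cnn1* and *Des* were each highest in this library. *Des*, also counted with the visceral muscle genes, was at 5570 CPM against at most 111 in the other PE2 libraries. *Acta2*, *Smtn* and *Lmod1* lay inside the range of the other PE2 libraries, and *Myocd* lay above it but inside the HDR range. Brown fat markers were at 8.92 CPM, against at least 350.2 in the other PE2 libraries and at least 169 in the HDR libraries. Adipocyte markers at 114 CPM were the lowest and macrophage markers at 485 CPM the highest of the 18 libraries. The adventitial fibroblast sum lay inside the range of the other PE2 libraries. Of its genes *Lum*, *Pi16*, *Gsn* and *Ly6a* were each highest of the 18, while *Col1a2* lay below the other PE2 libraries and *Col1a1* and *Dpt* inside their range. The urothelial and visceral muscle lists were drawn up after the values of peg/peg replicate 3 were seen. In the HDR experiment, wild-type library 3 had the highest sums of visceral muscle (2883 CPM), urothelial (84.0 CPM), skeletal muscle (127 CPM) and cardiac markers (104 CPM), with sg/sg library 4 close for the urothelial genes at 81.5 CPM, and leaving out either library changed no call among the 10 genes. Each genotype comparison in the PE2 experiment is given with and without peg/peg replicate 3.

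All 10 elastic fibre genes were lower in peg/peg replicate 3 than in any other PE2 library, where 28.2% of the 16401 genes tested were lowest in it and 30.8% highest. *Eln* was at 622 CPM there and at 11617 to 34850 CPM in the other 7, whose median was 42.4 times higher. *Mfap4* was at 192 CPM against a median 10.2 times higher, *Lox* at 128 CPM against a median 4.62 times higher, *Mfap5* at 168 CPM against a median 3.46 times higher and *Fbln5* at 276 CPM against a median 2.92 times higher. For the remaining 5 genes the ratio lay between 1.59 for *Efemp2* and 2.09 for *Loxl1*. The part of the foreign markers in these low values was not tested.

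**Figure D1:**
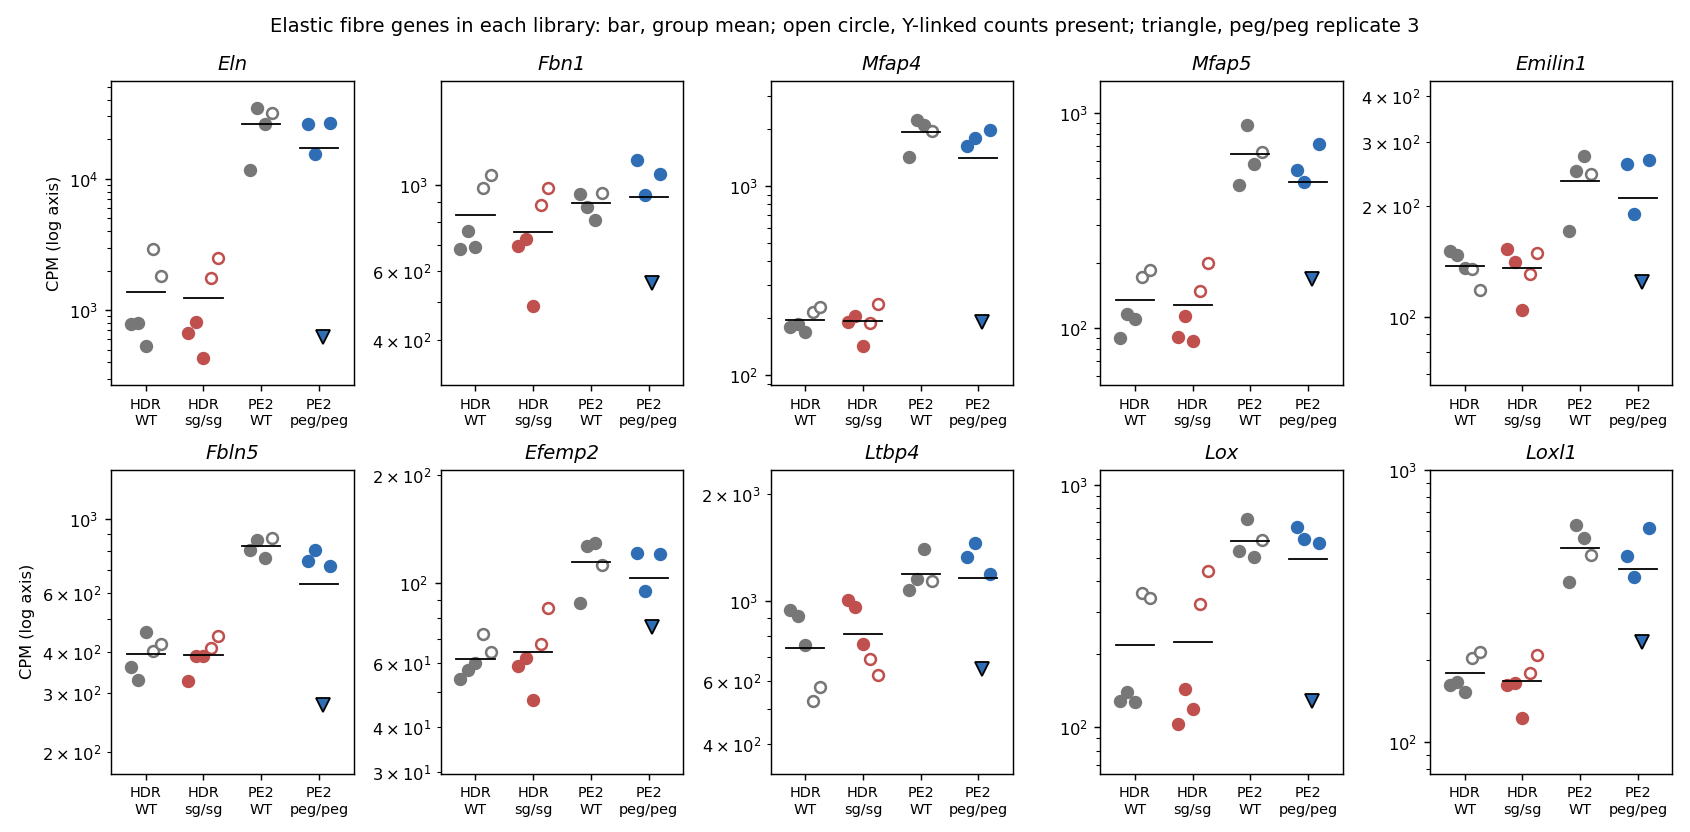
Level of each gene in CPM (log axis, TMM-scaled within each experiment) in every library of the 4 groups, with a bar at the group mean, open circles for libraries with counts of Y-linked genes and a triangle for peg/peg replicate 3. The triangle is the lowest PE2 point in all 10 panels, and for *Eln* and *Lox* the 4 open HDR circles lie above the 6 closed ones.

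Levels between genes were compared as CPM per kilobase of exon. In the PE2 wild type *Eln* led at 3226 ± 1270 (SD, n = 4) CPM per kb, and *Mfap4*, which encodes a microfibril-associated glycoprotein, followed at 1005 ± 189, and neither range overlapped the next. A middle group came after them, with *Ltbp4* at 185, *Mfap5* at 180, *Loxl1* at 157, *Lox* at 123 and *Fbln5* at 120 CPM per kb, in which each gene overlapped its neighbour. *Fbn1* at 74.0, *Emilin1* at 47.6 and *Efemp2* at 30.2 CPM per kb closed the order without overlap.

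The order was flatter in the HDR wild type. *Eln* stood at 169 ± 123 (SD, n = 5) CPM per kb and overlapped *Ltbp4* at 115 ± 29.2, which overlapped *Mfap4* at 102 ± 13.3. The libraries of *Eln* (65.4 to 359.9) and *Ltbp4* (81.7 to 146.2) also overlapped those of *Fbn1* (56.4 to 87.2), which *Mfap4* (lowest 88.6) did not. Next came *Fbn1* at 68.9, *Fbln5* at 56.9, *Loxl1* at 54.7, *Lox* at 45.7, *Mfap5* at 37.6 and *Emilin1* at 27.9 CPM per kb, each overlapping its neighbour, and *Efemp2* was lowest at 16.3 without overlap. Measured against the longest transcript in place of all exons, 8 of the 10 genes kept their rank in the HDR wild type and 6 of the 10 in the PE2 wild type, the changes being swaps of neighbours in the middle of the order.

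**Figure D2:**
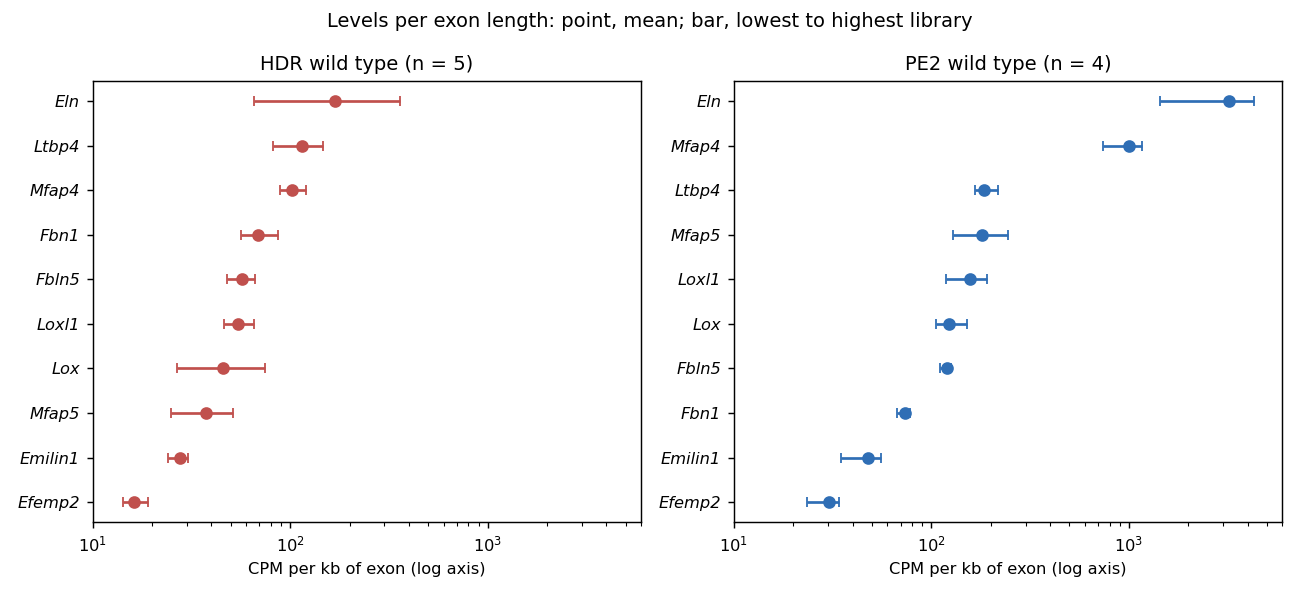
Mean level per kilobase of exon (log axis) of the 10 genes in the HDR and the PE2 wild type, with bars from the lowest to the highest library. *Eln* is first in both and *Efemp2* last, while *Mfap4* is apart from the rest only in the PE2 wild type.

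The first comparison asked whether the 3-base substitution at the *Tspan2* CArG box went with any change of these genes. None of the 10 was called between sg/sg and wild type (edgeR quasi-likelihood test, adjusted p = 1.0 for each), where 0.00609% of 16423 genes were called, and none was called by DESeq2, where 0.00933% were. At an unadjusted p under 0.05, 0 of the 10 and 325 of all genes (1.98%) passed with edgeR. Their log2 fold changes had a median of -0.02, against 0.003 over all genes tested.

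*Eln* was measured at 778, 792, 530, 2915 and 1827 CPM in the wild type and at 670, 806, 430, 1763 and 2508 CPM in sg/sg. Libraries 5 and 6 of both genotypes were the high ones, and the groups overlapped throughout. The means were 1368 ± 998 and 1235 ± 873 CPM (SD, n = 5 each), a log2 fold change of -0.15 ± 0.55 (SE).

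Among the microfibril genes, *Fbn1*, which encodes fibrillin-1, the backbone of the microfibril, was at 684, 761, 693, 980 and 1058 CPM in the wild type and at 694, 725, 489, 885 and 980 CPM in sg/sg. Its log2 fold change was -0.15 ± 0.20 (SE). *Mfap4*, *Mfap5*, a fibrillin-binding glycoprotein, and *Emilin1*, found where elastin meets microfibrils, had log2 fold changes of -0.02 ± 0.14, -0.08 ± 0.26 and -0.02 ± 0.12 (SE).

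The assembly genes were as close between genotypes. *Fbln5*, whose product fibulin-5 brings tropoelastin to microfibrils, was at 360, 330, 457, 400 and 420 CPM in the wild type and at 326, 388, 387, 410 and 445 CPM in sg/sg, and its log2 fold change of -0.01 ± 0.13 (SE) was the smallest of the 10. *Efemp2*, which encodes fibulin-4, a partner of lysyl oxidase, had 0.06 ± 0.15, and *Ltbp4*, whose product helps place fibulin-5, had 0.12 ± 0.20 on the same log2 scale.

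For the crosslinking enzymes the log2 fold changes were 0.05 ± 0.46 for *Lox* and -0.11 ± 0.15 for *Loxl1* (SE). *Lox* was at 128, 140, 127, 357 and 341 CPM in the wild type and at 103, 144, 119, 322 and 440 CPM in sg/sg, again with libraries 5 and 6 of both genotypes high. No gene of the 10 had groups that did not overlap, as 0.317% of all genes did. Exact two-sided permutation tests of the 10 differences in mean CPM gave unadjusted p from 0.492 to 0.968, where the smallest p that 5 against 5 allows is 0.00794.

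**Figure D3:**
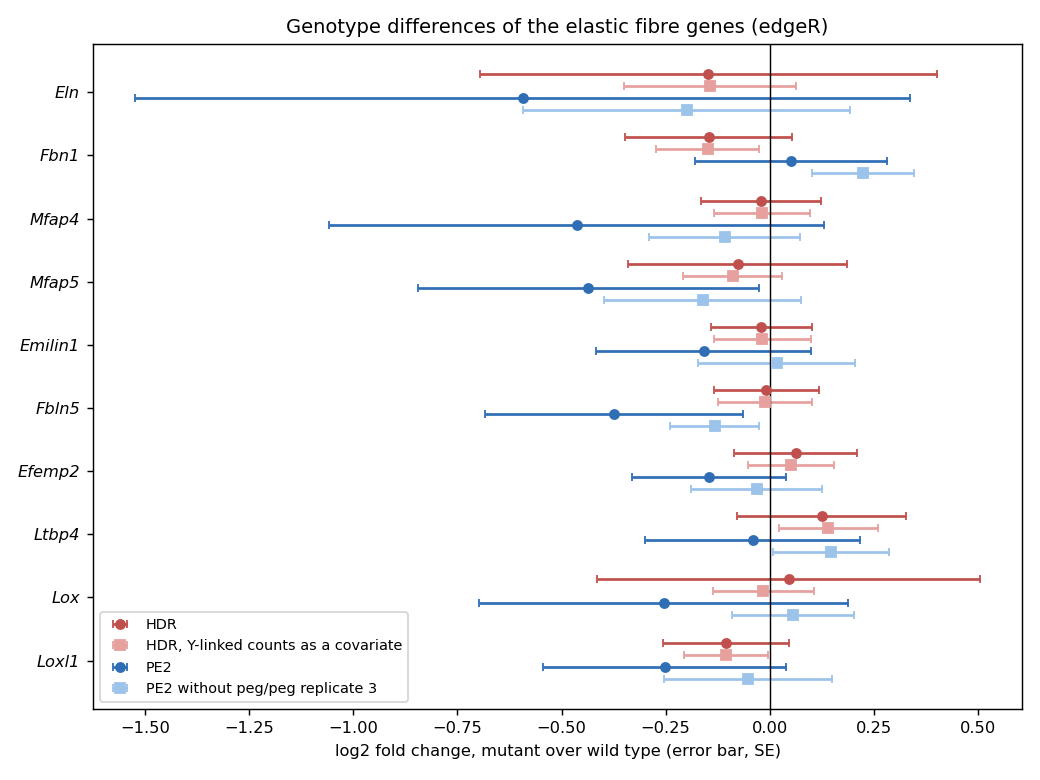
Log2 fold change of each gene, mutant over wild type, with SE bars, from edgeR fits of the HDR experiment with and without a term for Y-linked counts and of the PE2 experiment with and without peg/peg replicate 3. The PE2 points move toward 0 for *Eln*, *Mfap4*, *Mfap5* and *Fbln5* when that library is left out, and the HDR bars of *Eln* and *Lox* shorten with the Y-linked term.

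The spread of *Eln* within both HDR genotypes followed a split that crossed genotype. The 4 libraries numbered 5 and 6 in both genotypes held 339 to 402 CPM from 4 Y-linked genes (*Ddx3y*, *Eif2s3y*, *Kdm5d* and *Uty*), and the other 6 held at most 0.0473 CPM. The split was defined after the data were seen, and levels across it are given as a description. Each genotype had 2 libraries with Y-linked counts and 3 without, the numbers of males and females that its labels give. No library was tied to a single labelled animal, and sex and any other difference between these 2 sets of libraries cannot be told apart.

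*Eln* ran from 1763 to 2915 CPM in the 4 libraries with Y-linked counts and from 430 to 806 CPM in the 6 without, a ratio of means of 3.37. *Lox* ran from 322 to 440 CPM against 103 to 144 CPM, a ratio of 2.88. The genes of the structural protein and of its crosslinking enzyme had the widest gaps of the 10, and neither overlapped.

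*Mfap5* (148 to 200 against 86.8 to 117 CPM), *Fbn1* (885 to 1058 against 489 to 761 CPM), *Loxl1* (180 to 216 against 123 to 167 CPM) and *Efemp2* (64.6 to 85.6 against 47.3 to 62.0 CPM) were also higher without overlap, with ratios of means of 1.74, 1.45, 1.30 and 1.28. *Ltbp4* went the other way, at 528 to 689 CPM with Y-linked counts and 754 to 1010 CPM without, a ratio of 0.678. *Fbln5*, *Emilin1* and *Mfap4* overlapped. That made 7 of 10 genes without overlap, 6 higher and 1 lower, where 19.7% of 16423 genes did not overlap, 9.49% being higher and 10.2% lower.

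Other measures moved with the same split. The summed endothelial markers were at 904 to 1522 CPM in the 4 libraries and at 1545 to 2468 CPM in the 6, and the nuclear RNA *Malat1* was at 12892 to 16356 against 18238 to 27215 CPM, both without overlap. Smooth muscle and adventitial fibroblast markers overlapped, at 19491 to 35789 against 15982 to 28050 CPM and at 7252 to 10354 against 6826 to 9206 CPM. Their part in the levels of the elastic fibre genes was not tested. In the PE2 wild type the 1 male had 31638 CPM of *Eln*, inside the range of the 3 females from 11617 to 34850 CPM, and its 591 CPM of *Lox* lay inside their 503.7 to 721 CPM.

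With a term for Y-linked counts, an alternative chosen after the data were seen, none of the 10 genes was called between sg/sg and wild type. The log2 fold changes were then -0.14 ± 0.21 (SE) for *Eln* and -0.02 ± 0.12 for *Lox*, and the median SE over the 10 genes was 0.118 in place of 0.176. Neither subset of libraries alone gave a call among the 10.

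**Figure D4:**
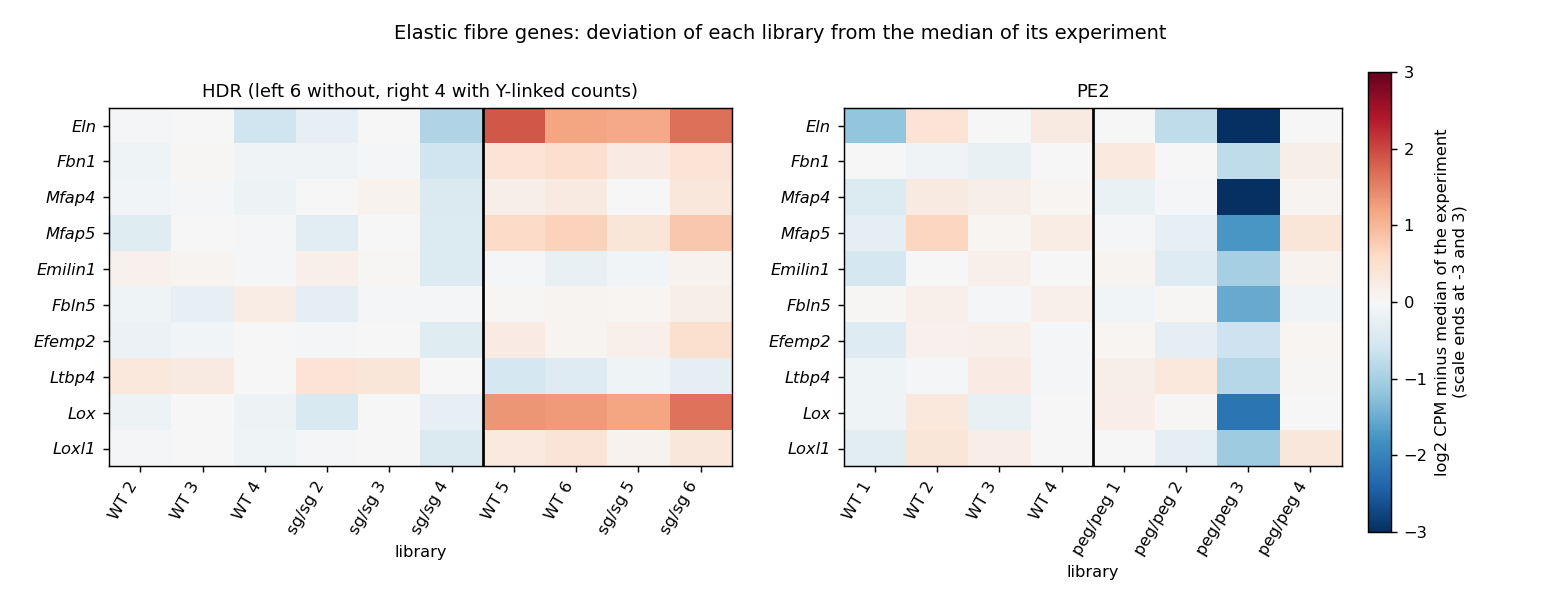
Log2 CPM of each gene in each library minus the median of its experiment, with the HDR libraries ordered by Y-linked counts and the PE2 libraries by genotype (colour scale ends at -3 and 3, which peg/peg replicate 3 exceeds for *Eln* and *Mfap4*). The 4 HDR libraries at the right are high for *Eln* and *Lox* and low for *Ltbp4*, and peg/peg replicate 3 is low for all 10 genes.

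The second comparison asked the same of the single-base substitution. None of the 10 genes was called between peg/peg and wild type by edgeR (adjusted p from 0.861 to 0.972), where 0.0061% of 16401 genes were called, or by DESeq2, where 0.149% were. At an unadjusted p under 0.05, 0 of the 10 and 706 of all genes (4.3%) passed with edgeR. Without peg/peg replicate 3 none of the 10 was called either, with 0.012% of 16668 genes called by edgeR and 0.492% by DESeq2.

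*Eln* was at 11617, 34850, 26398 and 31638 CPM in the wild type and at 26388, 15531, 622 and 26702 CPM in peg/peg. The 3 other peg/peg libraries lay inside the wild-type range. Means of 26126 ± 10281 and 17311 ± 12278 CPM (SD, n = 4 each) gave a log2 fold change of -0.59 ± 0.93 (SE), which became -0.20 ± 0.39 without replicate 3, the peg/peg mean then being 22873 ± 6361 CPM (SD, n = 3). Replicate 3 combined the lowest *Eln* with the highest smooth muscle sum, of which *Des*, also counted as a visceral muscle gene, gave 5570 CPM. Its *Acta2*, *Smtn* and *Lmod1* lay inside the range of the other PE2 libraries. Wild-type 1 and peg/peg 2, the lowest of the 7 other libraries for *Eln*, also had their lowest smooth muscle sums, 27134 and 27765 CPM, although wild-type 4 at 28832 CPM had 31638 CPM of *Eln*. These libraries were picked out after their values were seen, and a link between *Eln* and the smooth muscle sums was not tested.

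The microfibril genes showed the same dependence on that library. *Mfap4* was at 1417, 2245, 2111 and 1954 CPM in the wild type and at 1633, 1789, 192 and 1989 CPM in peg/peg, and its log2 fold change of -0.46 ± 0.59 (SE) became -0.11 ± 0.18 without it. *Mfap5* went from -0.44 ± 0.41 to -0.16 ± 0.24, and *Emilin1* from -0.16 ± 0.26 to 0.02 ± 0.19. *Fbn1* was the only gene of the 10 with a positive log2 fold change in the fit of all 8 libraries, 0.05 ± 0.23, and reached 0.22 ± 0.12 without replicate 3, at 949, 877, 814 and 950 CPM in the wild type against 1154, 943 and 1062 CPM in the 3 other peg/peg libraries.

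Among the assembly genes, *Fbln5* was at 804, 864, 762 and 875 CPM in the wild type and at 745, 807, 276 and 723 CPM in peg/peg. Its log2 fold change of -0.37 ± 0.31 (SE) became -0.13 ± 0.11 without replicate 3. *Ltbp4* moved from -0.04 ± 0.26 to 0.15 ± 0.14 and *Efemp2* from -0.15 ± 0.18 to -0.03 ± 0.16.

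Of the crosslinking enzymes, *Lox* was at 534, 721, 503.7 and 591 CPM in the wild type and at 669, 596, 128 and 575 CPM in peg/peg, with a log2 fold change of -0.25 ± 0.44 (SE) that became 0.06 ± 0.15 without replicate 3. *Loxl1* went from -0.25 ± 0.29 to -0.05 ± 0.20. With all 8 libraries 9 of the 10 values were negative, and without replicate 3 the signs were mixed, 6 negative and 4 positive.

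The groups overlapped for all 10 genes with replicate 3 and without it, while 2.54% and 5.23% of all genes did not overlap. Exact two-sided permutation tests gave unadjusted p from 0.0857 (*Fbln5*) to 0.914 (*Ltbp4*) with 4 against 4 libraries, where the smallest possible p is 0.0286. Without replicate 3 they ran from 0.171 to 0.971, and 3 against 4 cannot go below 0.0571.

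The difference between the 2 genotype effects was then tested itself, as the sg/sg effect minus the peg/peg effect. None of the 10 genes was called by edgeR (adjusted p = 1.0 for each), where 0 of 18094 genes were called (0% of all) and 929 (5.13%) had an unadjusted p under 0.05, and DESeq2 called 13 genes (0.062%), 0 of them among the 10. The estimate for *Eln* was 0.46 ± 1.07 on the log2 scale (SE), and 0.08 ± 0.80 without peg/peg replicate 3.

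The wild types of the experiments differed far more than the genotypes did. Of the 10 genes 9 were lower in the HDR than in the PE2 wild type by edgeR, where 55.7% of 18094 genes were called and 26.1% were called lower in HDR, and DESeq2 also called 9 lower, with 45.5% of genes called and 17.3% called lower. Without peg/peg replicate 3 in the fit edgeR called 9 of the 10 lower, with 59.7% of genes called and 28.1% lower. These wild types differed in age, in the strain given, in depth and as separate experiments, and *Malat1* was at 12892 to 27215 CPM in the HDR and 82.5 to 160 CPM in the PE2 libraries. Age and everything else that separated the experiments cannot be told apart.

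*Eln* had the largest difference, a log2 fold change of -4.26 ± 0.83 (SE, adjusted p = 0.00031), with mean CPM 19.2 times higher in the PE2 wild type. The gene took 1.17 to 3.34% of all counts in the PE2 wild-type libraries and 0.0538 to 0.283% in the HDR wild-type libraries. On one scale across the experiments, its lowest PE2 wild-type library (11403 CPM) stood well above its highest HDR wild-type library (2922 CPM).

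The microfibril genes *Mfap4* at -3.30 ± 0.43 and *Mfap5* at -2.27 ± 0.36 (SE, adjusted p = 5.1e-06 and 4.1e-05) came next, with means 9.88 and 4.82 times higher in the PE2 wild type. *Loxl1* had -1.53 ± 0.23, *Lox* -1.43 ± 0.49, *Fbln5* -1.07 ± 0.22, *Efemp2* -0.90 ± 0.18, *Emilin1* -0.78 ± 0.20 and *Ltbp4* -0.69 ± 0.24 (adjusted p from 3.1e-05 to 0.020). *Fbn1* was not called, at -0.10 ± 0.22 (adjusted p = 0.71), with overlapping ranges of 843 to 931 CPM in the PE2 and 689 to 1046 CPM in the HDR wild type. *Lox* lost its call on leaving out HDR wild type 2 or 4 or PE2 wild type 2 (adjusted p from 0.051 to 0.053), and *Ltbp4* on leaving out HDR wild type 5 (0.052) or PE2 wild type 3 (0.10).

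Beyond the 10, a list of 33 other genes of elastic fibres and their maturation was counted, with microfibril, fibulin, lysyl oxidase, ADAMTS-like, proteoglycan, elastin receptor and processing genes among them. None of the 31 tested in the HDR experiment and none of the 33 tested in the PE2 experiment was called between genotypes. In the HDR experiment 20 of the 31 values were negative, with a median log2 fold change of -0.05, and in the PE2 experiment 16 of 33 were negative, with a median of 0.03. Without peg/peg replicate 3 the balance in PE2 was different, with 7 of 33 negative, 26 positive and a median of 0.10.

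At an unadjusted p under 0.05 the HDR experiment gave *Emilin2*, an elastin-associated glycoprotein gene, at -0.39 ± 0.17, and *Bmp1*, a procollagen and pro-lysyl oxidase protease gene, at -0.25 ± 0.10 (log2 fold change and SE, edgeR adjusted p = 1.0 for both). Those 2 of 31 stand beside 1.98% of all genes. The PE2 experiment gave 4 of 33, all positive, beside 4.3% of all genes, of which 498 were higher and 208 lower. They were the fibulin genes *Fbln1* at 1.84 ± 0.79 and *Efemp1* at 2.18 ± 0.87, the lysyl oxidase gene *Loxl4* at 0.96 ± 0.39 and the copper transporter gene *Atp7a* at 0.72 ± 0.29 (edgeR adjusted p = 0.86 for each). For *Fbln1* peg/peg replicate 3 alone was high, at 1935 CPM against 118 to 279 CPM in the other 7 PE2 libraries, and *Efemp1* was at 222 CPM in it against 11.1 to 32.1 CPM. Without that library none of the 4 passed, and only *Adamtsl2*, seen in that fit alone, did, at 0.67 ± 0.28.

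The list's highest genes per exon length were the proteoglycan genes *Bgn*, *Dcn* and *Hspg2*, at 358, 252 and 101 CPM per kb in the HDR wild type and 991, 168 and 117 CPM per kb in the PE2 wild type. In peg/peg replicate 3 *Dcn* was at 4630 CPM and *Bgn* at 1518 CPM, outside the other PE2 libraries on opposite sides, at 541 to 1785 and 4468 to 7213 CPM. Between the wild types 12 of 32 tested genes of the list were called, where 55.7% of all genes were, and 10 were lower in HDR, where 26.1% of all genes were, among them *Bgn* at -1.48 ± 0.33 and *Bmp1* at -0.87 ± 0.15, and 2 higher, *Atp7a* at 1.72 ± 0.20 and *Vcan* at 0.46 ± 0.18, the latter named after its value was seen. The median was -0.37 against -1.25 for the 10 genes and 0.001 for all genes.

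Correlations among the 10 genes differed between the sets of libraries. With each group centred on its mean, 34 of the 45 gene pairs had a positive Pearson correlation of log2 CPM over the 10 HDR libraries, with a median r of 0.58. Over the 8 PE2 libraries all 45 were positive with a median r of 0.89, and without peg/peg replicate 3 this fell to 33 of 45 and 0.28. *Eln* went with *Lox* at r = 0.95, *Fbn1* at 0.93 and *Loxl1* at 0.93 in the HDR libraries and against *Ltbp4* at -0.76. In the 7 PE2 libraries it went with *Emilin1* and *Efemp2* at 0.91 each, with *Fbn1* at 0.08 and with *Ltbp4* at 0.05. The libraries of an experiment share its run and the correlations are given as a description, with the HDR values spanning the split by Y-linked counts. No share of positive pairs or median r was computed for other genes. Peg/peg replicate 3 was the lowest PE2 library for 28.2% and the highest for 30.8% of the 16401 genes tested. These correlations therefore cannot be called particular to the 10.

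The genes most like *Eln* over all 18 group-centred libraries, among 8849 with a mean of at least 10 CPM in both experiments, were *Tub* (r = 0.98), *Loxl3* (0.96), *Ccn5* (0.96), *Ramp1* (0.96) and *Sel1l3* (0.96). Without peg/peg replicate 3 they were *Tub* (0.94), *Mmp23* (0.93), *Thra* (0.93), *Sost* (0.92) and *Bak1* (0.91), so that *Tub* alone stayed among the first 5. Among the other 9 elastic fibre genes *Mfap5* ranked highest in both, at 15 and 19 of 8849 (r = 0.94 and 0.90), and *Ltbp4* lowest, at 3551 (r = 0.25) and 8389 (r = -0.63). Both rankings span the HDR split by Y-linked counts, across which 19.7% of 16423 genes did not overlap. They are given as a description, and shared regulation with *Eln* was not tested.

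The 10 genes lie on 9 chromosomes in GRCm38, *Eln* on the minus strand at chr5:134702593-134747323 and *Emilin1* on the same chromosome at chr5:30913402-30921277. Exons of *Eln*, *Fbn1*, *Efemp2*, *Lox* and *Mfap4* overlap those of an opposite-strand gene in the annotation. The longest overlap with a single exon was between 30 bp (*Lox*) and 2442 bp (*Fbn1*, with *Gm9913*). Whether reads were counted by strand was not given in the sources used here, and reads of the overlapped bases cannot be assigned between such partners without it.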

How the data were processed

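Bulk poly(A) RNA-seq of 18 mouse aortae was analysed. The authors aligned fastp-trimmed reads with STAR 2.7.0f to GRCm38 and Gencode annotation, and counted genes with featureCounts of Subread 1.6.4. The deposited raw counts per gene were used for every test. The tables that the authors deposited as a normalized signal, counts divided by DESeq2 1.22.1 size factors, were read only to recover those factors and entered no test. The read length and library kit differ between the labels and the study's methods (TruSeq RNA V2 or TruSeq Stranded mRNA). Counts were tested with edgeR 4.0.16 in R 4.3.3 (TMM, filterByExpr, quasi-likelihood F test, Benjamini-Hochberg over all genes, adjusted p under 0.05), 1 fit per experiment and 1 over the 4 groups for comparisons between experiments. Fold changes are fitted values and levels are TMM-scaled CPM. The SE of an edgeR log2 fold change was derived from the test, as its absolute value divided by the square root of F. DESeq2 1.42.0, limma-voom (limma 3.58.1), other filters and scalings and leaving out each library were alternatives. Exact two-sided permutation tests used scipy 1.17.1. The fits were tested on simulated data. Most genes changed by 0.5 on the log2 scale were missed in every comparison. In PE2 most genes changed by 1 were missed as well, so an absent call does not exclude changes of that size. Group replicates are single animals, each library 1 aorta, and no 2 libraries of a group agreed within sampling noise. Replicate numbers did not pair the PE2 libraries, and HDR numbers could not be tied to animals. The 10 genes, the lists and the rule for named genes (the 10, list members with an unadjusted p under 0.05 within an experiment, the 3 highest of the list and the 5 genes most like *Eln*) were chosen with earlier results of these data known. Lymphoid markers summed to at most 15.0 CPM, adipocyte markers to between 114 and 2868 CPM and macrophage markers to between 77.2 and 485 CPM in the 18 libraries. The lowest adipocyte and the highest macrophage sums were those of peg/peg replicate 3.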

Additional observations from a re-analysis of the deposited data

Results flagged for a closer look

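*Fbln5* in the peg/peg group was marked because 1 library lay far from the others. The library labelled peg/peg replicate 3 was at 276 CPM, and its gap to the next library was 0.841 of the range of the group, above Dixon's 95% limit of 0.829 for 4 values. Chance marks about 1 in 20 groups, and 1 of the 40 groups of the 10 genes (2.5%) was marked. The other 9 genes were also lowest in that library without passing the limit. Among the 33 further elastic fibre genes 6 of 132 groups were marked, and 4 of those 6 fell on the same library (*Fbln1* and *Efemp1* high, *Bgn* and *Adamts10* low).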

How the results depend on the processing

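None of the 10 genes was called between genotypes in any of the 20 alternatives of the HDR experiment, the 19 of the PE2 experiment or the 26 of the difference between them, nor with any 1 library left out. Over all genes the alternatives called between 1 and 4 in HDR, 0 and 99 in PE2 (30 by DESeq2, 99 by DESeq2 without peg/peg replicate 3) and 0 and 13 for the difference. In PE2, 0 genes were called with the replicate block, with sex as a covariate or with females alone. The same held on leaving out wild-type 1, 2 or 4 or peg/peg 1, 2 or 4. Leaving out wild-type 3 called 1 gene, which was higher in peg/peg. The edited *Tspan2* was missed in all these fits (edgeR adjusted p up to 0.29), so an absent call among the 10 says little there. Between the wild types 8 to 9 of the 10 were called with 1 library left out, and 8 with at least 10 counts required in every library, where *Ltbp4* dropped out (adjusted p = 0.054). DESeq2 moved the median log2 fold change of all genes between the wild types to 0.23 and its split to 7105 higher and 4338 lower, from 5349 and 4723. Ranking by the longest transcript kept 6 of 10 places in the PE2 wild type.

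The shared replicate numbers of the PE2 groups did not pair the libraries: deviations of same-numbered libraries correlated at -0.09, -0.09, -0.03 and -0.17. With the replicate block 0 of the 10 genes and 0 genes in all were called, against 1 without it, and no wild-type library correlated best with its own number. HDR columns carry no numbers tied to animals, so no block was fitted there. Sex as a covariate and the females alone also gave 0 of the 10 and 0 genes in all. The SE of *Eln* in PE2 was 0.93 on the log2 scale, which limits what 4 libraries a group can show.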
